A study of Mus musculus with 39 samples.

Results

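Clones yfp_6499c4 and yfp_6499c3 are 2 tumour cell clones whose names share the number of 1 parent line, and they were compared here as a T cell high and a T cell low clone of mouse pancreatic tumour cells. The comparison used 4 of the 39 RNA sequencing libraries of the series, from 2 of its 20 clones, chosen by the clone name in the title. Libraries of tumour 1 and tumour 2, the number that ends the title, stood for each clone. Both clones had been implanted under the skin of C57BL/6 mice, the tumours received no treatment, and tumour cells were sorted from them after 3 weeks. The class, T cell high for yfp_6499c4 and T cell low for yfp_6499c3, was the difference given between the groups. YFP, a yellow fluorescent protein, is named in the titles, whereas the labels give neither the genotype of the line, the promoter that drove YFP nor the age and sex of the mice. Each class was represented here by 1 clone, so class and clone cannot be told apart. Nothing in the labels ties the libraries of a clone to separate mice. The p-values rest on the spread between libraries of a clone, estimated over 36 libraries of 17 clones, and this spread may be technical.

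Sister clones of 1 tumour share the mutations that were present before they diverged and can still differ in chromosome copies, in DNA methylation and in the programs of differentiation that they express. Pancreatic ductal tumour cells commonly express duct keratins and, in some states, genes of stomach and intestine. Tumour cells also respond to interferons through receptor-bound JAK kinases and STAT factors, which switch on interferon-stimulated genes. They draw immune cells in or keep them out through chemokines, growth factors and prostaglandins. The comparison addressed which genes of the tumour cells differed between a T cell high clone and a T cell low clone.

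The 4 libraries held 27625997 counts (yfp_6499c4 tumour 1), 34565903 (yfp_6499c4 tumour 2), 103794674 (yfp_6499c3 tumour 1) and 38928959 (yfp_6499c3 tumour 2). Levels are given in that order of libraries as CPM, the count of a gene relative to the library total after TMM scaling. The library labelled yfp_6499c4 tumour 1 stood apart. Its 12 heart muscle markers summed to 6835 CPM, against 95.0 in tumour 2 of the same clone and 309 and 60.4 in yfp_6499c3. Liver markers summed to 18910, 24.0, 699 and 122 CPM, and fibroblast markers to 4530, 407, 784 and 624 CPM. Myh6, the heart myosin, was at 1317 and 45.5 CPM in the tumour 1 libraries of yfp_6499c4 and yfp_6499c3, and had 0 counts in both tumour 2 libraries. Over log2 levels of the tested genes, yfp_6499c4 tumour 1 correlated more closely with tumour 1 of clone yfp_6620c1 (r = 0.991) than tumour 1 of yfp_6499c3 did with its own tumour 2 (r = 0.970). Tumour 2 of its own clone ranked 33 among the 35 other libraries (r = 0.816), and tumour 1 of yfp_6499c3 ranked 16 (r = 0.895). Its 8 nearest libraries belonged to other clones, each with 2647 CPM or more in the sum of 4 heart genes (Myh6 and 3 others). Whether this library was mixed up with another was not tested, and all tumour 1 values of yfp_6499c4 rest on its label. In bulk samples, fewer cells of a type and less RNA per cell cannot be told apart.

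**Figure D1:**
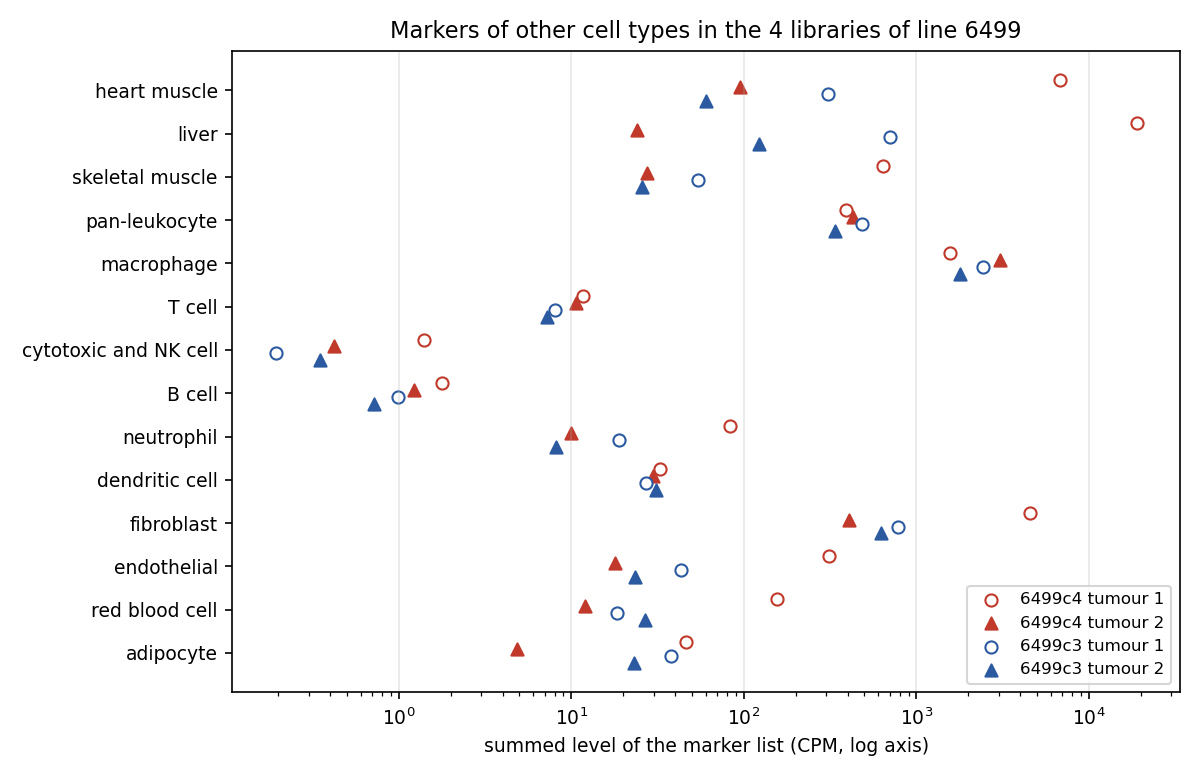
Summed CPM (log axis) of 14 marker lists for cell types other than tumour cells, 1 point per library, with open circles for tumour 1 and filled triangles for tumour 2. Heart, liver, skeletal muscle, fibroblast and endothelial markers were highest in yfp_6499c4 tumour 1, whereas the macrophage sum was 1560, 3036, 2422 and 1778 CPM in the 4 libraries.

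Immune markers were measured in all 4 libraries. The pan-leukocyte list summed to 390, 428, 484 and 337 CPM. T cell markers summed to 11.7 and 10.7 CPM in yfp_6499c4 and to 8.06 and 7.18 CPM in yfp_6499c3, and 4 of the 12 T cell markers had 0 counts in yfp_6499c3 tumour 2. Of these 14 lists, 0 had a member past an edgeR adjusted p of 0.05, and at most 1 member of a list had an unadjusted p under 0.05 or was called by DESeq2. The part of these cells in the results below was not tested.

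Of 16357 genes tested with edgeR, 91 were higher in yfp_6499c4 (0.556%) and 137 were lower (0.838%) at an adjusted p under 0.05. All 228 had the same sign in both tumour numbers, against 60.1% of all tested genes. The same libraries served to call these genes, so their agreement in sign largely follows from the choice and is a description. Without yfp_6499c4 tumour 1 the counts were 152 (0.929%) and 150 (0.917%), and 72 and 67 genes were called in both fits. Without both tumour 1 libraries they were 27 (0.165%) and 30 (0.183%), and in a fit of heart-free libraries of all clones 21 (0.128%) and 11 (0.0672%). Leaving out yfp_6499c3 tumour 1 gave 24 and 39, leaving out yfp_6499c3 tumour 2 gave 12 and 26, and leaving out yfp_6499c4 tumour 2 gave 22 and 21. The main fit drew its estimate of spread from 36 libraries of 17 clones. In the heart-free fit each of the 2 clones had 1 library, with 3 residual degrees of freedom against 19 in the main fit. In a fit of these 4 libraries alone edgeR called 0 genes, with 1759 at an unadjusted p under 0.05, whereas DESeq2 in the fit of 36 libraries called 415 higher and 360 lower.

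**Figure D2:**
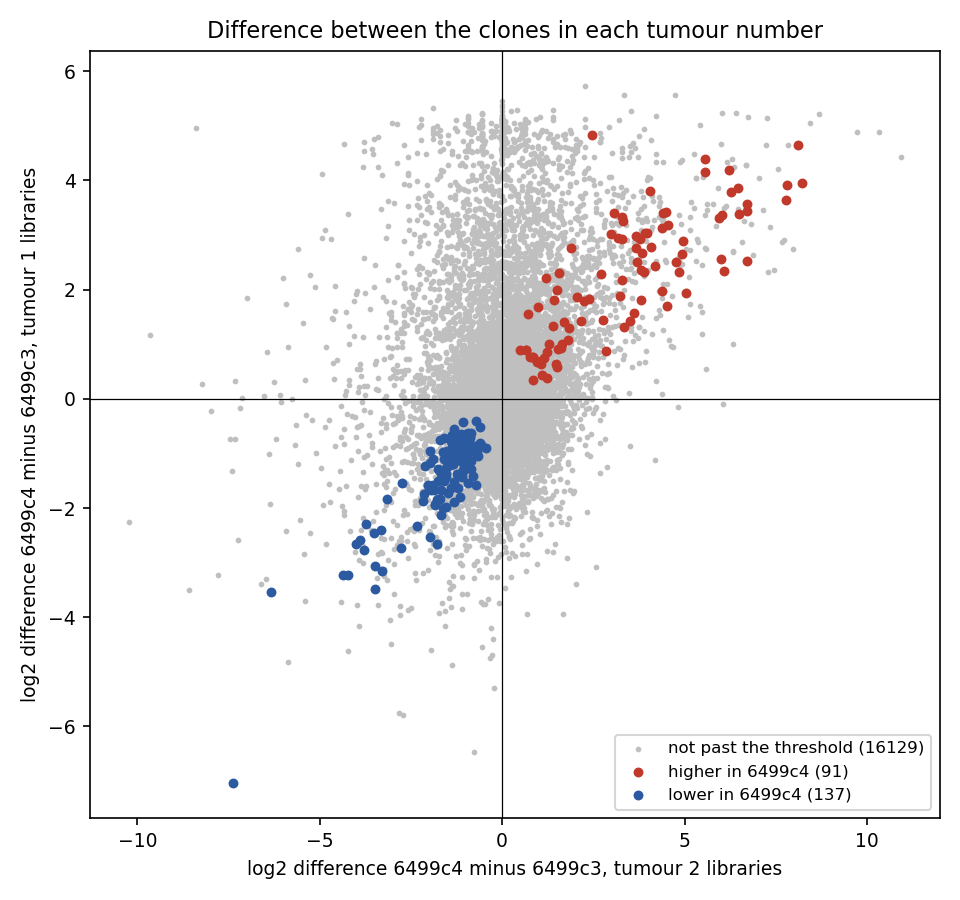
Each point is 1 of 16357 genes, placed by the log2 difference between the clones in the tumour 2 libraries (x axis) and in the tumour 1 libraries (y axis). The 91 genes called higher and the 137 called lower lay on the same side of 0 on both axes, and many grey genes lay high on the y axis alone. The libraries plotted also served to call the genes.

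The genes with the smallest p among those higher in yfp_6499c4 were led by a cytokine receptor and a set of membrane, mitochondrial and chromatin genes. Il3ra, the alpha subunit of the interleukin 3 receptor (ENSMUSG00000068758, GRCm38 chromosome 14, 14346275 to 14356011), was at 30.6 and 29.9 CPM in yfp_6499c4 and at 4.75 and 2.06 CPM in yfp_6499c3. Its log2 difference was 3.15 ± 0.38 (SE, 2 libraries per clone, edgeR adjusted p = 0.000133). Each SE was worked back from the edgeR test statistic, whose spread came from the 36 libraries and not from these clones alone. Gpm6b, a membrane glycoprotein of the proteolipid family (chromosome X), was at 59.4 and 102.5 against 8.61 and 5.98 CPM, a log2 difference of 3.47 ± 0.45 (adjusted p = 0.00029). Zdhhc15, which encodes a palmitoyltransferase, stood at 16 and 39.4 CPM in yfp_6499c4. It was at 1.43 and 0.323 CPM in yfp_6499c3, a log2 difference of 4.96 ± 0.68. In these 3 genes the libraries of the clones did not overlap, and the tumour 2 pair differed more than the tumour 1 pair.

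Dpf2, a subunit of the BAF chromatin remodelling complex, rose by less, with 68.4 and 60.4 against 27.0 and 22.8 CPM (log2 1.37 ± 0.19). Mcat, the malonyltransferase of mitochondrial fatty acid synthesis, was at 23.0 and 26.6 against 11.4 and 10.9 CPM (log2 1.15 ± 0.17). Htatip2, also called TIP30, was at 25.6 and 41.7 against 3.71 and 3.23 CPM (log2 3.27 ± 0.45). In those 3 genes the libraries of each clone lay closer to each other than to the other clone. Ddah2, of the dimethylarginine dimethylaminohydrolase family, was at 36.4 and 124.7 against 5.72 and 4.05 CPM (log2 4.04 ± 0.61). Fam73a, which takes part in mitochondrial fusion, was at 18.2 and 42.2 against 1.73 and 0.596 CPM (log2 4.68 ± 0.72). The others were Aig1, a lipid hydrolase, the zinc finger genes Zfp28 and Zfp12, and Fam171a2, with log2 differences from 1.98 to 3.73. All 12 passed again without yfp_6499c4 tumour 1, and 11 passed without both tumour 1 libraries. Zfp12 did not (adjusted p = 0.116). In a fit of heart-free libraries alone 3 passed, Il3ra, Zdhhc15 and Fam171a2.

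Fgfr4, a fibroblast growth factor receptor, was at 25.1 and 52.9 CPM in yfp_6499c4 and at 1.57 and 0.124 CPM in yfp_6499c3, the last from 5 counts. Its log2 difference was 5.48 ± 0.86 (edgeR adjusted p = 0.00137). Lgr5, the receptor for R-spondins and a target of Wnt signalling, was at 7.67 and 27.0 against 0.829 and 1.24 CPM (log2 4.07 ± 0.80, adjusted p = 0.0121). Lgr5 was the 1 of 9 measured genes of the Wnt target list that passed (0.556% of all tested genes were called higher). Axin2, a feedback inhibitor of that pathway, was at 7.28 and 7.01 against 1.35 and 0.621 CPM without passing (log2 2.85 ± 1.5, adjusted p = 0.410). Car8, a carbonic anhydrase relative, was at 16.9 and 84.1 against 0.617 and 0.248 CPM (log2 6.83 ± 1.16, adjusted p = 0.00333). In Fgfr4, Lgr5 and Car8, both libraries of yfp_6499c4 stood above both of yfp_6499c3, and tumour 2 of yfp_6499c4 was the highest.

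Among genes lower in yfp_6499c4, Pik3ca had the smallest p. It encodes the catalytic alpha subunit of phosphoinositide 3-kinase (ENSMUSG00000027665, chromosome 3, 32397671 to 32468486) and was at 84.2 and 75.9 CPM in yfp_6499c4 and at 266.8 and 278.9 CPM in yfp_6499c3. The log2 difference was -1.77 ± 0.18 (edgeR adjusted p = 5.5e-05). E2f6, a repressor of the E2F family, was at 24.4 and 23.8 against 86.5 and 77.7 CPM (log2 -1.77 ± 0.26). For both genes the libraries of a clone lay close together and the clones stood far apart. Of the 12 genes named by the same rule, 8 lie on chromosome 9 within the stretch described below: Dnm2, Zfp426, Zfp317, Kri1, Vstm5, Mtmr2, Tyk2 and Elof1. Dnm2, the dynamin that pinches off endocytic vesicles, was at 132.9 and 116.8 against 358.5 and 340.8 CPM (log2 -1.49 ± 0.16). Tyk2, a JAK kinase bound to the type I interferon and interleukin 12 receptors, was at 36.8 and 38.0 against 95.3 and 110.3 CPM (log2 -1.46 ± 0.22). All 12 passed without yfp_6499c4 tumour 1, and 9 passed without both tumour 1 libraries. Mtmr2, E2f6 and Elof1 did not (adjusted p = 0.068, 0.066 and 0.076). In a fit of heart-free libraries alone 0 of the 12 passed (adjusted p = 0.0551 for Pik3ca and for Dnm2).

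**Figure D3:**
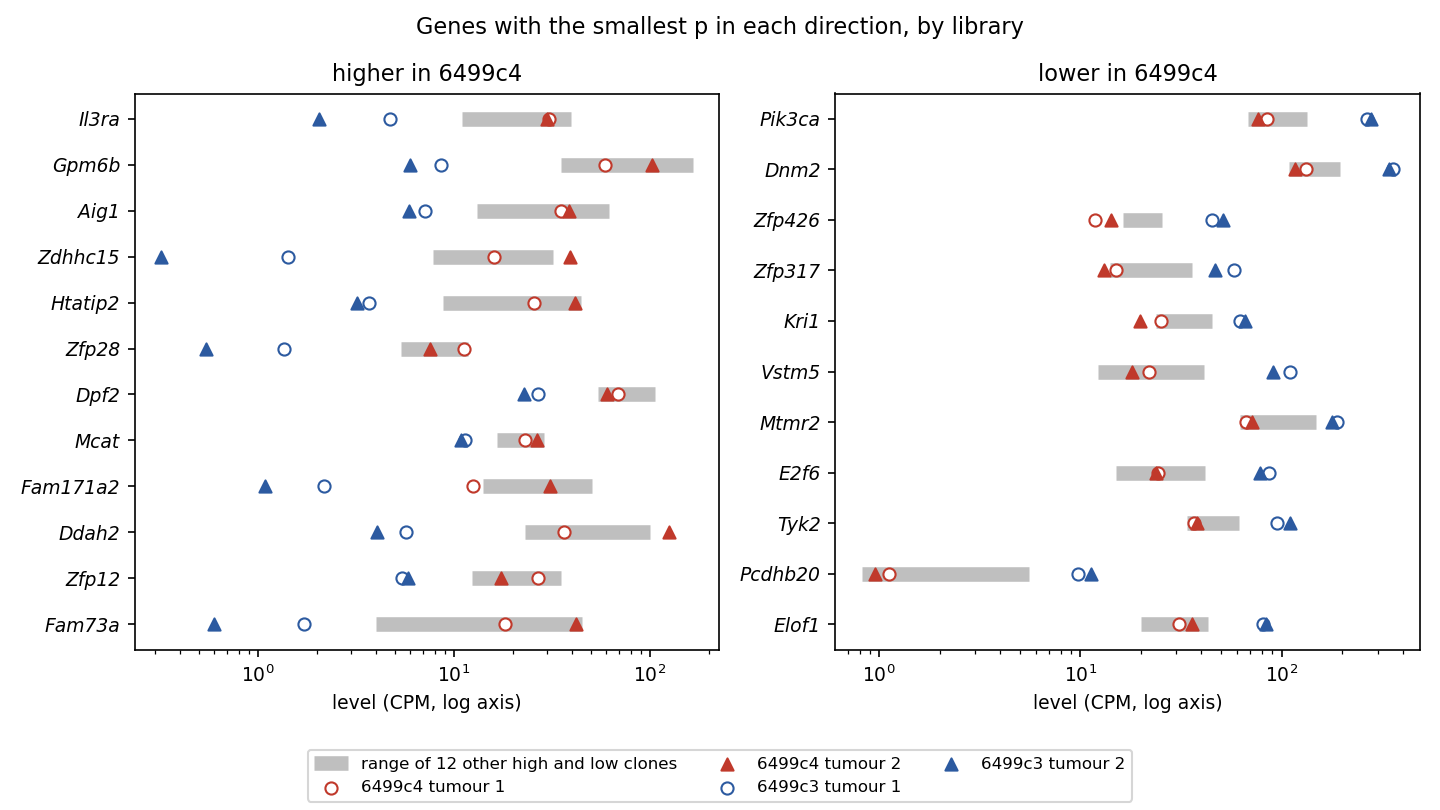
CPM (log axis) of the genes with the lowest p, 12 higher and 11 lower in yfp_6499c4, with open circles for tumour 1 and triangles for tumour 2. Grey bars span the 12 other T cell high and low clones with a heart-free library, and the points of yfp_6499c3 lie outside the bar in all 23 genes.

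The clones were also placed among the other clones of the series. Of 16 clones with a library free of heart transcripts, yfp_6499c3 had the lowest level in 77 of the 91 genes called higher in yfp_6499c4 (84.6%, against 5.8% of all tested genes). It had the highest level in 129 of the 137 genes called lower (94.2%, against 6.2%). Clone yfp_6499c4 was the highest in 17 of the 91 (18.7%, against 9.0% of all tested genes). It was the lowest in 32 of the 137 (23.4%, against 7.9%). Without yfp_6499c4 tumour 1 these counts were more even. Clone yfp_6499c3 was then lowest in 88 of 152 and yfp_6499c4 highest in 70, and yfp_6499c3 was highest in 90 of 150 and yfp_6499c4 lowest in 89. Il3ra ranged from 19.4 to 39.7 CPM in 5 other high clones and from 11 to 38.1 CPM in 7 other low clones, so that yfp_6499c4 lay inside both ranges and yfp_6499c3 below both. Pik3ca ranged from 68.5 to 106.9 and from 89.7 to 134.2 CPM, with yfp_6499c3 above both. The levels of both clones took part in choosing these genes, so the counts are a description. Without yfp_6499c4 tumour 1, the library of yfp_6499c4 that was ranked was also the only library of that clone in the fit.

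Genes lower in yfp_6499c4 lay next to each other on chromosome 9. Among 10940 genes whose tumour 2 pair averaged 5 CPM or more, 130 were called lower (1.19%). A run of 79 of these genes at chr9:13242607-22888280 (GRCm38) held 33 of them. Its median log2 difference was -1.33 in the tumour 1 pair and -1.14 in the tumour 2 pair, and 75 and 78 of the 79 were lower in yfp_6499c4. The other 548 genes of the chromosome had medians of -0.01 and 0.13, with 1 called lower. Without yfp_6499c4 tumour 1, 22 genes of the run were called. The run and its ends were chosen after its values were seen, so these numbers describe it. Clone yfp_6499c3 had the highest level of the 16 clones in 65 of the 79 genes, against 701 of the 10940. Its median log2 level over the run was 1.14 above the other clones, whereas yfp_6499c4 stood at -0.05 and the 14 other clones from -0.28 to 0.34.

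Several genes of the run, also chosen after their values were seen, act on the genome or on signalling. Dnmt1, the maintenance DNA methyltransferase, was at 83.5 and 100.8 CPM in yfp_6499c4 and at 296.6 and 340.3 CPM in yfp_6499c3 (log2 -1.79 ± 0.37, edgeR adjusted p = 0.0159). Keap1, the inhibitor of the oxidative stress factor NRF2, was at 54.8 and 62.8 against 128.4 and 175.2 CPM (log2 -1.37 ± 0.29, adjusted p = 0.0189). Mre11a, of the complex that senses DNA breaks, was at 27.1 and 33.0 against 89.6 and 91.9 CPM (log2 -1.59 ± 0.32, adjusted p = 0.0145). Without yfp_6499c4 tumour 1 the adjusted p was 0.0779 for Dnmt1, 0.0837 for Keap1 and 0.0736 for Mre11a. The 3 genes stood at similar ratios between the clones although their levels differed.

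Chromosomes 12, 3 and 18 had the lowest medians of all chromosomes in both pairs. Chromosomes 2, 6, 8, 9, 15 and 16 also had medians below 0 in both pairs, as with -0.06 and -0.30 for chromosome 2. Over all 10940 genes the medians were -0.10 and 0.004. Chromosome 12 had a median log2 difference of -0.47 in the tumour 1 pair and -0.58 in the tumour 2 pair over 373 genes, chromosome 3 of -0.44 and -0.45 over 548, and chromosome 18 of -0.39 and -0.41 over 277. These 3 chromosomes held 28, 30 and 11 of the 130 genes called lower and 0, 2 and 0 of the 68 called higher (0.622%). Of the 11 on chromosome 18, 6 lay between 36 and 40 Mb, where the Pcdhb genes described below lie, so both counts share genes. Dnmt3a on chromosome 12, a DNA methyltransferase, and Adar on chromosome 3, the RNA editing enzyme, were among those called lower. Adar was at 74.0 and 51.3 against 210.6 and 175.2 CPM, a log2 difference of -1.62 ± 0.26. The 13 mitochondrial genes had a median of 1.28 in the tumour 2 pair and -0.23 in the tumour 1 pair, with 0 called by edgeR. Chromosome X had medians of 0.26 and 0.46 over 328 genes. Chromosome 1 had a median of 0.37 in the tumour 2 pair and 0.03 in the tumour 1 pair. Copy number was not measured, and neither copy number nor methylation was tested as a source of these shifts.

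**Figure D4:**
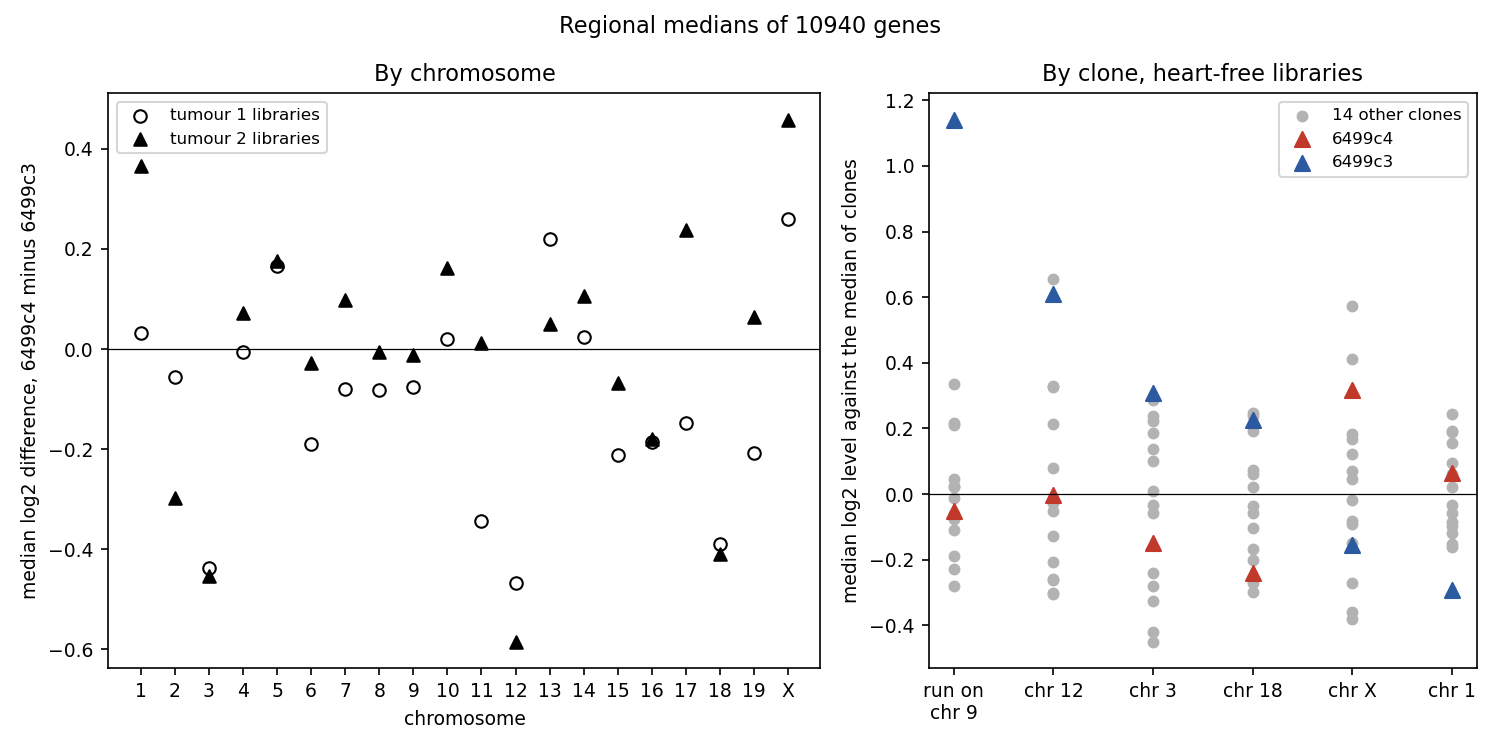
Left, median log2 difference between the clones by chromosome (x axis) in the tumour 1 libraries (circles) and the tumour 2 libraries (triangles). Right, median log2 level of each of 16 clones against the other clones in heart-free libraries, where yfp_6499c3 lies at 1.14 over the run on chromosome 9 and the other clones from -0.28 to 0.34.

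Several genes of an adhesion gene cluster on chromosome 18 were lower in yfp_6499c4. Protocadherins of the beta cluster are encoded side by side and are known for single-cell identity in neurons. Of 16 measured Pcdhb genes, 6 were called lower (0.838% of all tested genes) and 0 higher (0.556%). In 11 the clones did not overlap, all lower in yfp_6499c4, against 22.5% of all tested genes. Pcdhb20 was at 1.12 and 0.958 CPM in yfp_6499c4 and at 9.74 and 11.3 CPM in yfp_6499c3 (log2 -3.34 ± 0.50, edgeR adjusted p = 0.00088). Pcdhb16 was at 2.0 and 0.389 against 23.8 and 36.2 CPM (log2 -4.65 ± 0.77, adjusted p = 0.00227). The genes from Pcdhb14 to Pcdhb22 stood lower in both libraries of yfp_6499c4, whereas Pcdhb7 was at 0.560 and 1.20 against 0.251 and 0.571 CPM. In 12 of the 16 genes, yfp_6499c3 had the highest level of the 16 clones, against 6.2% of all tested genes. Apart from Pcdhb20 the family was chosen after the called genes were seen, so these counts describe it.

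Xist and Y-linked transcripts differed between the libraries of a clone, and Xist did not pass between the clones. Xist, the RNA that silences an X chromosome, was at 193.7 and 28.7 CPM in yfp_6499c4 and at 844.7 and 578.2 CPM in yfp_6499c3 (log2 -2.68 ± 1.76, adjusted p = 0.537). Ddx3y, a Y-linked gene, had no counts in the tumour 2 library of either clone. In the tumour 1 libraries, which also held heart and liver transcripts, it was at 42.4 CPM in yfp_6499c4 and at 7.6 CPM in yfp_6499c3. Eif2s3y, Kdm5d and Uty, also on chromosome Y, had the same pattern. The source of the Y-linked transcripts was not tested.

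Interferon-stimulated genes were lower in the T cell high clone, with 1 of 16 past the threshold (0.838% of all tested genes were called lower). Of the 16 measured members of the type I interferon list, 15 had both libraries of yfp_6499c4 below both of yfp_6499c3 (22.5% of all tested genes) and 0 the reverse. The median log2 difference was -1.26 over the list and 0.07 over all tested genes. Ifit1, an antiviral RNA-binding protein, was called lower. To show what letters these genes share near their starts, 3 RefSeq promoter windows (GRCm38.p6, 250 bases before to 50 after the start) are given 5′ to 3′ on the strand of the gene. They lie at chr19:34640639-34640938 (plus strand), chr19:34583279-34583578 (plus strand) and chr4:156200769-156201068 (minus strand). Capitals mark GAAA followed, after 2 bases of any kind, by a further GAAA, the core of the element bound by interferon-activated STAT and IRF factors, on either strand, with overlapping matches joined.
Ifit1: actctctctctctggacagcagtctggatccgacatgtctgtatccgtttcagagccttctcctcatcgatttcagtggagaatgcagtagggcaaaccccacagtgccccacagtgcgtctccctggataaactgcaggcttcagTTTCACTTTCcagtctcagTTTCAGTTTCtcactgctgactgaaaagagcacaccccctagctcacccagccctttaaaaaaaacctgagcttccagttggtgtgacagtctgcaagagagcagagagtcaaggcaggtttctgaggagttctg
Ifit3: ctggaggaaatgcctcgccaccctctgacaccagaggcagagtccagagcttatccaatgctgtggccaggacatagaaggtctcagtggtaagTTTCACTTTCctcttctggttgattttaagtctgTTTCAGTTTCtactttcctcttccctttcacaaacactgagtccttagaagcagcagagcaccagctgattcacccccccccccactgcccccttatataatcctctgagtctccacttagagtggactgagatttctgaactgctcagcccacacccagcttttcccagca
Isg15: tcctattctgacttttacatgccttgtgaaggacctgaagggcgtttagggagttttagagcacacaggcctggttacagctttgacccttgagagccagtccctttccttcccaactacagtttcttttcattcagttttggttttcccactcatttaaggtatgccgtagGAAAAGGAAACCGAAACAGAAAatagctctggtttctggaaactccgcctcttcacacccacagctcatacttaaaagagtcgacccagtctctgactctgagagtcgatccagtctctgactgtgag

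Of the 16 members, 13 matched a RefSeq window and 8 of those held the motif, as did 3.44% of 32851 windows of that length. The Ifit1 and Ifit3 windows held 2 matches each and the Isg15 window 3. A match describes letters only, and no binding was measured here.

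Ifit1 was at 2.24 and 1.38 CPM in yfp_6499c4 and at 20.4 and 14.1 CPM in yfp_6499c3, a log2 difference of -3.25 ± 0.78 (edgeR adjusted p = 0.0365). It did not pass without yfp_6499c4 tumour 1 (log2 -3.65, adjusted p = 0.0843). Oas2, a sensor of double-stranded RNA, was at 4.55 and 4.43 against 26.5 and 30.5 CPM (log2 -2.66 ± 0.94, adjusted p = 0.174). Ifit3 was at 2.66 and 2.40 against 12.3 and 10.6 CPM (log2 -2.18 ± 0.81, adjusted p = 0.197). In all 3 genes the levels of yfp_6499c4 were alike in both tumours. Isg15, the ubiquitin-like modifier, was at 3.29 and 2.96 against 7.25 and 8.37 CPM, and Usp18, which removes it from proteins, at 3.85 and 2.69 against 11.5 and 10.6 CPM. Irf7, a factor that amplifies interferon production, was at 8.02 and 14.3 against 29.8 and 21.8 CPM. Oasl1 was the 1 member whose libraries overlapped, at 46.1 and 25.5 against 59.7 and 33.5 CPM. In the other clones Ifit1 ranged from 2.65 to 16.1 CPM in high and from 1.68 to 11.6 CPM in low clones in heart-free libraries. The heart-free library of yfp_6499c3, tumour 2, lay inside the high range and above the low one, and that of yfp_6499c4 lay below both.

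Genes of the interferon gamma list were less uniform. Of 17 members, 10 had lower levels in yfp_6499c4 without overlap (22.5% of all tested genes) and 1 had higher levels (21.0%), the median log2 difference was -0.64, and 0 passed in edgeR (1 at an unadjusted p under 0.05, 0 by DESeq2). Cxcl10, a chemokine for activated T cells, was at 2.31 and 2.78 against 9.12 and 7.20 CPM, whereas Cxcl9, its neighbour with the same receptor, was at 2.52 and 3.65 against 1.26 and 4.52 CPM. Gbp2, a guanylate-binding protein, was at 14.5 and 17 against 24.1 and 56.6 CPM. Psme2, a proteasome activator, was at 52.6 and 124.5 against 55.7 and 65.6 CPM, with no order between the clones.

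**Figure D5:**
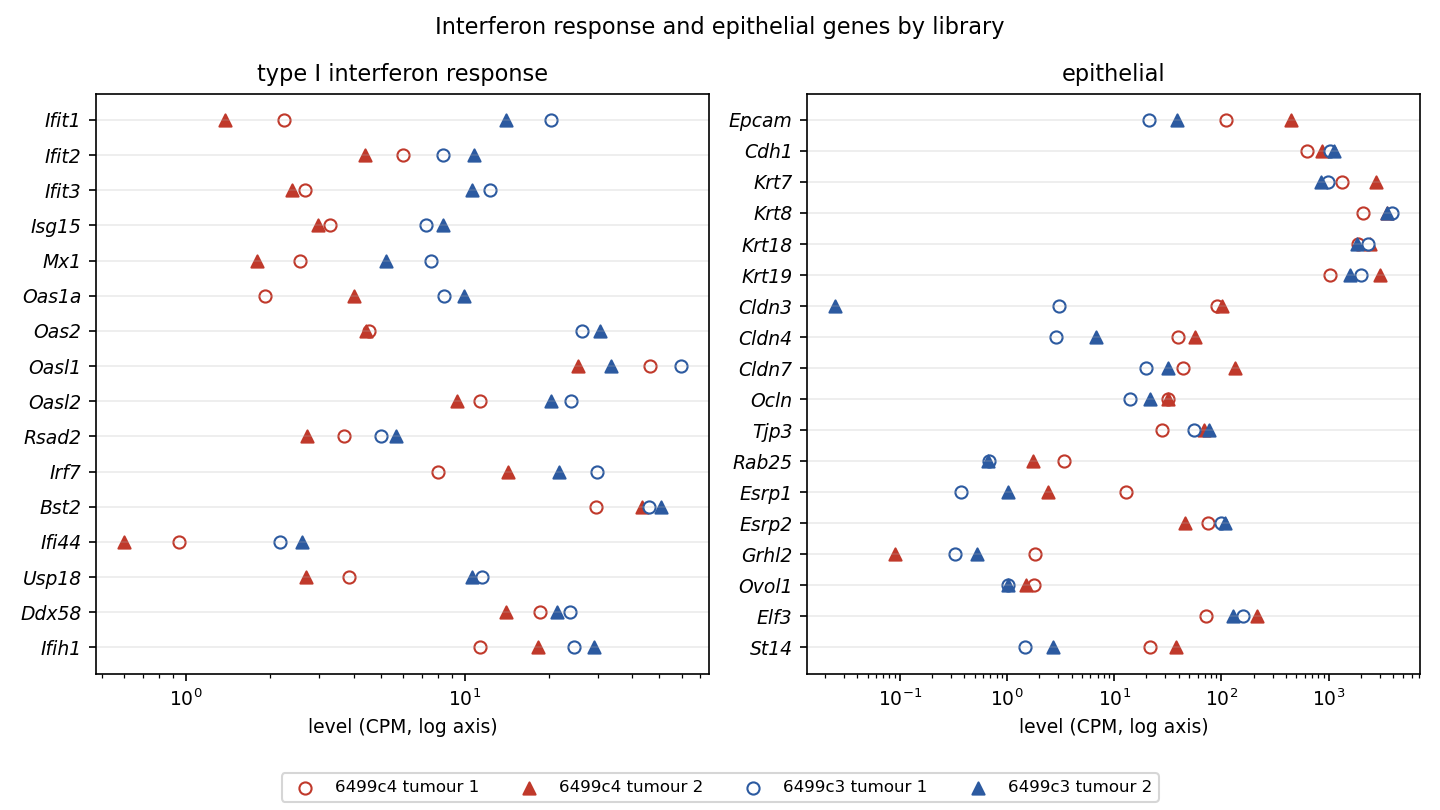
CPM (log axis) of each member of the type I interferon list (left) and the epithelial list (right), 1 point per library. Both libraries of yfp_6499c4 lie left of both of yfp_6499c3 in 15 of 16 interferon genes and right of them in 10 of 18 epithelial genes.

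Antigen presentation genes did not separate the clones in the same way. H2-K1, a heavy chain of class I, was at 287.7 and 437.5 CPM in yfp_6499c4 and at 211.6 and 348.9 CPM in yfp_6499c3. B2m, its light chain, was at 260.6 and 300.8 against 357.0 and 303.9 CPM. Of 12 members of the class I list, 1 was higher (21.0% of all tested genes) and 2 were lower (22.5%) in yfp_6499c4 without overlap. Of 7 class II genes, 5 were higher without overlap, against 21.0% of all tested genes. Cd74, the invariant chain, was at 244.0 and 281.1 against 170.4 and 179.9 CPM (log2 0.58 ± 1.28, adjusted p = 0.875). Of both lists edgeR called 0, with 0 members at an unadjusted p under 0.05 and 0 called by DESeq2. Class II genes are typical of macrophages and dendritic cells, whose summed markers are given above, and their part in these levels was not tested.

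Of 18 epithelial genes, 10 were higher in yfp_6499c4 without overlap (21.0% of all tested genes) and 3 lower (22.5%), with a median log2 difference of 1.0. In this list edgeR called 0, 5 members had an unadjusted p under 0.05, and DESeq2 called 3. Epcam, the epithelial adhesion molecule, was at 111.5 and 447.7 CPM in yfp_6499c4 and at 21.2 and 38.7 CPM in yfp_6499c3 (log2 3.22 ± 0.96, edgeR adjusted p = 0.101). Cldn4, a tight junction claudin, was at 39.5 and 57.1 against 2.88 and 6.75 CPM (log2 3.33 ± 1.18, adjusted p = 0.175). St14, the membrane protease matriptase, was at 21.4 and 37.8 against 1.47 and 2.66 CPM. In these 3 genes the clones did not overlap in either tumour. Krt7 was at 1327 and 2763 against 987.2 and 847.3 CPM. Krt8 was at 2106 and 3475 against 3899 and 3516 CPM, and Cdh1, the gene of E-cadherin, at 634.6 and 876.4 against 1034 and 1133 CPM.

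Some genes were all but silent in 1 tumour 2 library. This comparison is of 2 libraries, with no test. In the tumour 2 pair 590 genes were over 4-fold higher in yfp_6499c4 (3.61%) and 558 lower (3.41%), and in the tumour 1 pair 1629 (9.96%) and 314 (1.92%). At 10 CPM or more in 1 library and at most 3 counts in the other, 11 genes were detected in yfp_6499c4 and 7 in yfp_6499c3. Among the 7 was Alb, the liver transcript of albumin, at 18.5 CPM in yfp_6499c3 tumour 2 and at 6827 CPM in yfp_6499c4 tumour 1. Stmn2, a microtubule regulator of neurons, was at 204.5 CPM in yfp_6499c4 with 2 counts in yfp_6499c3. Cldn3, another claudin, was at 101.7 CPM with 1 count. Mmp7, an epithelial metalloproteinase also called matrilysin, was at 27.5 CPM with 1 count. In the tumour 1 pair Stmn2 was at 10.7 against 0.443 CPM, Cldn3 at 91.8 against 3.06 and Mmp7 at 3.68 against 0.0578. All 3 thus stood higher in yfp_6499c4 in both tumours, by amounts that differed. The adjusted p was 0.262 for Stmn2, 0.414 for Cldn3 and 0.190 for Mmp7. Edn2, the peptide endothelin 2, was called higher, at 1.23 and 17.3 against 0.0482 and 0.0248 CPM (adjusted p = 0.0123).

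Of 12 genes of the gastrointestinal list, 4 were higher in yfp_6499c4 without overlap (21.0% of all tested genes) and 3 lower (22.5%), with a median log2 difference of -0.34. In this list edgeR called 0, with 3 at an unadjusted p under 0.05 and 1 called by DESeq2. Some stomach genes were all but absent from 1 library. Muc5b, a secreted mucin, was at 65.6 CPM in yfp_6499c3 tumour 2 and had 0 counts in yfp_6499c4 tumour 2, at least 731-fold lower against a floor of 3 counts in that library. Gkn2, a gastrokine of the stomach surface, was at 43.9 CPM against 0 counts, at least 489-fold lower. Tff1, a trefoil peptide of the same cells, was at 251.7 against 0.599 CPM. Muc5ac was at 81.9 against 0.270 CPM. The tumour 1 pair gave another picture for some of these. Gkn2 was at 31.9 CPM in yfp_6499c4 and at 14.1 CPM in yfp_6499c3, Muc5ac at 22.7 and 26.5 CPM, and Tff1 at 38.9 and 439.1 CPM. With all libraries the adjusted p was 0.607 for Muc5ac and 0.888 for Gkn2. Tff1 was called lower without yfp_6499c4 tumour 1 (adjusted p = 0.0318) and not with it (0.164), and for Muc5b these values were 0.0297 and 0.250. The transcription factor gene Cdx2, which drives intestinal identity, ran the other way, at 2.70 and 60.2 against 0.366 and 0.695 CPM (log2 5.89 ± 1.81, adjusted p = 0.116). Agr2, a disulfide isomerase of mucus-secreting cells, was at 16.8 and 95.0 against 0.424 and 0.571 CPM (log2 6.81 ± 1.94, adjusted p = 0.0869). Tff1 and Agr2 belong to the list of pancreatic duct and progenitor genes and not to the gastrointestinal list, and Muc5b to no list. Of the 15 genes of the duct list, 1 was higher in yfp_6499c4 without overlap (21.0% of all tested genes) and 9 were lower (22.5%). There edgeR called 0, with 4 at an unadjusted p under 0.05 and 2 called by DESeq2.

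The listed candidates, secreted factors among them, did not pass in edgeR. Of 34 candidate genes edgeR called 0, with 4 at an unadjusted p under 0.05 and 1 called by DESeq2. Ptgs2, the cyclooxygenase that starts prostaglandin synthesis, was at 60.4 and 32.8 CPM in yfp_6499c4 and at 180.8 and 142.1 CPM in yfp_6499c3 (log2 -1.79 ± 0.90, adjusted p = 0.373). Cxcl5, a neutrophil chemokine, was at 29.2 and 34.9 against 147.7 and 103.0 CPM (log2 -1.97 ± 0.71, adjusted p = 0.185). For both genes the libraries of the clones did not overlap. Cxcl1, a related chemokine, was at 26.5 and 0.389 against 11.9 and 7.43 CPM, and the growth factor gene Csf1 at 56.0 and 7.28 against 12.1 and 11 CPM, so that the 2 tumours gave opposite orders. Cxcl16 was at 54.6 and 128.9 against 64.2 and 46.9 CPM. Cd274, which encodes PD-L1, was at 13.4 and 9.94 against 12.5 and 9.83 CPM, and Myc at 136.6 and 157.4 against 202.4 and 140.0 CPM. Epha2, a receptor kinase, was at 310.7 and 349.4 against 295.0 and 330.2 CPM (log2 0.08 ± 0.25).

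Of 22 cell cycle genes, 11 were lower in yfp_6499c4 without overlap (22.5% of all tested genes) and 1 was higher (21.0%), with a median log2 difference of -0.30. Mki67, a marker of cycling cells, was at 140.1 and 102.3 against 267.9 and 183.9 CPM, and Foxm1, a driver of mitotic genes, at 54.8 and 29.2 against 88.8 and 63.4 CPM. In this list edgeR called 0, with 4 members at an unadjusted p under 0.05 and 0 called by DESeq2. Of the 33 lists of biology, 29 had 0 called members. The remaining 4 were type I interferon, Wnt targets, Eph receptors and ephrins, and p53 targets and tumour suppressors. Efna5, an ephrin, was called lower at 15.2 and 16.1 against 34.6 and 33.7 CPM (log2 -1.13 ± 0.26, edgeR adjusted p = 0.0309), and not without yfp_6499c4 tumour 1 (0.104). Zmat3, a p53 target that binds RNA and lies beside Pik3ca on chromosome 3, was called lower at 21.3 and 27.0 against 71.6 and 119.3 CPM (log2 -1.98 ± 0.35, adjusted p = 0.00434).

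Line yfp_6556 also held a high clone, yfp_6556c4, and a low clone, yfp_6556c3, and the difference between its clones was set against that of line yfp_6499. In edgeR 10 genes (0.0611%) had a higher and 14 (0.0856%) a lower difference in line yfp_6499 at an adjusted p under 0.05. Of the 24 genes with the smallest p in line yfp_6499, 15 were among them. Zdhhc15 differed by log2 4.96 in line yfp_6499 and by -0.13 in line yfp_6556, a difference of 5.09 (adjusted p = 0.029). Pik3ca differed by -1.77 and -0.46, a difference of -1.30 (adjusted p = 0.0433). Leaving out the tumour 1 libraries of both lines left a lone library for each of these clones. The difference between lines was then 6.70 for Zdhhc15 and -1.34 for Pik3ca, and most of the calls did not hold.

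The difference between the clones was also compared between the tumour numbers. In edgeR 1 gene, Oaf, had a different change in the tumour 1 and tumour 2 pairs (0.00611% of genes tested). Oaf was at 64.6 and 3.20 CPM in yfp_6499c4 and at 41.3 and 48.1 CPM in yfp_6499c3. The log2 difference was 0.64 in tumour 1 and -3.89 in tumour 2, and the 2 differed by 4.55 (adjusted p = 0.00506). Lone libraries in this fit were assumed to vary like those of other clones.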

How the data were processed

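RNA was sequenced from sorted tumour cells, and the authors deposited 1 table of raw counts of 39017 genes in 39 libraries. STAR, featureCounts and mm10 are named in the submitters' processing notes. Their versions, the annotation and the strand setting: not given in the sources used here. Thus reads of overlapping or antisense genes and of near-identical families such as H2, Ifit and Pcdhb are uncertain. Coordinates are from GENCODE M21 (37607 identifiers found). Where a symbol occurred in several rows (214 rows repeated an earlier symbol), the most abundant row carried it.

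Libraries were grouped by clone from their titles. Counts were filtered with filterByExpr on the 4 libraries, TMM-scaled and tested with edgeR 4.0.16 (robust quasi-likelihood, Benjamini-Hochberg adjusted p under 0.05, R 4.3.3) in 36 libraries of 17 clones with a class, with clone as the factor, which left 19 residual degrees of freedom. The 3 libraries with no class were not used. Log2 values of 1 pair used a prior count of 2. Depth ran from 27625997 to 103794674 counts in the 4 libraries, so 3 counts stood for under 0.1 CPM in the tumour 2 libraries. DESeq2 1.42.0, limma 3.58.1, other scaling, filters, left-out libraries, heart transcripts (heart-free under 10 CPM of Myh6, Myh7, Myl2 and Mb), and the replicate number as a block were alternatives. Named were, per direction, the 12 lowest p among genes past the threshold that averaged 5 CPM or more and had the same sign in both pairs, the 8 with the largest difference in the tumour 2 pair, list members by level or when past the threshold, and candidates, leaving out Riken, Gm and pseudogene symbols. Results of some genes that meet this rule are not reported here, and counts include them. Other genes named, among them Adar, Agr2, Axin2, Cdx2, Cldn4, Edn2, Foxm1, Gbp2, Ifit3, Irf7, Isg15, Oas2, St14, Usp18, Oaf and the sex-linked genes, were chosen after their values were seen. Members and lists were chosen with earlier results of these data known. On simulated data of 16357 genes the fit called 9% of the genes given a log2 change of 1 and 62% of those given 2, with 4 false among 75 calls.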

Additional observations from a re-analysis of the deposited data

Results flagged for a closer look

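Differences that changed between the pairs of libraries or between parent lines were looked at again. Oaf had a difference between the clones that changed by 4.55 on the log2 scale from tumour 2 to tumour 1 (edgeR adjusted p = 0.00506).

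For 14 genes the difference between the clones of line yfp_6499 stood apart from that of line yfp_6556 by a test of the difference itself. The log2 gap, line yfp_6499 minus line yfp_6556, was 5.09 for Zdhhc15, 4.62 for Fam73a, 3.96 for Fam171a2, 3.27 for Gpm6b, 3.10 for Htatip2, 3.06 for Zfp28 and 2.50 for Il3ra. It was -1.80 for Dnm2, -1.75 for Zfp317, -1.68 for Tyk2, -1.65 for Zfp426, -1.64 for Kri1, -1.41 for Mtmr2 and -1.30 for Pik3ca. In line yfp_6556 the same genes differed by between -0.46 and 0.64. Without the tumour 1 libraries of both lines, 1 of the 14, Zdhhc15, passed again (adjusted p = 0.024), whereas the adjusted p was 0.135 for Fam73a, 0.162 for Il3ra and 0.556 for Pik3ca. Both lines held 1 high and 1 low clone, so the gaps compare these 4 clones.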

How the results depend on the processing

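Genes higher in yfp_6499c4, 91 in edgeR with all libraries, numbered 12 to 152 when 1 of the 4 libraries was left out, and genes lower, 137, numbered 21 to 150. Without both tumour 1 libraries, an alternative chosen after seeing the data, they were 27 and 30. They were 21 and 11 in heart-free libraries, 1194 and 142 in libraries with heart transcripts, 580 and 531 with heart transcripts as a covariate, 47 and 78 with no filter, 415 and 360 with DESeq2, and 125 and 218 with limma voom. The tumour number as a replicate block gave 244 and 289 in all libraries. In the 4 libraries alone edgeR called 0 and 0 genes with the replicate block (1992 at an unadjusted p under 0.05) and 0 and 0 without it (1759). Deviations of the tumour 1 libraries from their clone means correlated at r = 0.621 over 16357 genes, but the labels give only a shared number. DESeq2 gave 9 genes, against 1, for the change between tumour numbers. The 24 genes that differed between lines numbered 1 to 30 with 1 library left out, 4 without the tumour 1 libraries of both lines (chosen after seeing the data; 3 of the 24 and Oaf), 1 with no filter and 79 with DESeq2. Fewer libraries give a fit less information. The fits of libraries without and with heart transcripts each held 1 library of each of the 2 clones. They left 3 and 1 residual degrees of freedom, against 19 with all libraries, so their counts cannot be compared with the others. Otherwise the cause was not tested. Of 196 named genes 30 were called. Of these, 26 lost the call in heart-free libraries, 30 in the 4 libraries alone, 12 in libraries with heart transcripts and 8 without both tumour 1 libraries, and 0 called values changed sign under the alternatives run. With 2 libraries per clone, of which 1 carried heart and liver transcripts, changes of log2 1 were seldom within reach.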
